A study of Mus musculus with 2 samples.

Results

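The genes described here encode proteins of synaptic vesicles, of their fusion machinery and of the presynaptic active zone, measured in single cells of the mouse hippocampus. The 37 members were taken by name from the 30223 gene rows of the expression table: 7 integral or attached vesicle proteins, 8 SNAREs and SNARE regulators, 6 calcium sensors, 5 priming factors, 9 active zone scaffold proteins and 2 dynamins. The rule names genes and uses no measured value, although the list was drawn up with earlier results of these data known. Cells of both genotypes were used, in each neuron class, with glia as the background level.

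A presynaptic terminal stores neurotransmitter in vesicles that dock at the active zone, are primed by factors of the Unc13 and Cadps families and fuse when a calcium sensor such as Syt1 acts on the SNARE complex of Vamp2, Stx1a and Snap25. Scaffold proteins (Rims, Bsn, Pclo, Erc, Ppfia) hold calcium channels and vesicles together at the release site, and dynamins cut the membrane free again during endocytosis. In the hippocampus, dentate granule cells send mossy fibres to CA3 pyramidal neurons, which project to CA1, and these synapses are known for unequal release properties. Many of these proteins exist as paralogues, which neuron types use in different mixtures.

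The cells came from C57Bl.6/J mice, either wild-type controls or mice homozygous for the knock-in allele Pigv341E, made by CRISPR-Cas9 editing. Pigv encodes a mannosyltransferase that helps to build the glycosylphosphatidylinositol anchor of cell surface proteins. For each genotype the 8 hippocampi of 4 mice were dissociated mechanically in the cold, and the cells were pooled into 1 library, so each genotype is 1 pool without a replicate. Genotype and library therefore cannot be told apart, and no test between them was possible. The age and sex of the mice are not given in the sources used here. The allele is carried in every cell of the mouse, and the level of the Pigv transcript is no check of an edited allele.

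There were 7094 wild-type and 8836 knock-in cells, with 28 cell barcodes present in both. Clustering without the members gave 7 neuron classes that held 50 or more cells per library. These were dentate granule-like (1402 wild-type and 1383 knock-in cells), CA1-like (829 and 994), CA3-like (314 and 370), other glutamatergic neuron-like (614 and 1134), interneuron-like (157 and 255), Cajal-Retzius-like (63 and 102) and immature neuron-like cells (66 and 94). The 4 glia classes were astrocyte-like (595 and 815), oligodendrocyte precursor-like (210 and 301), mature oligodendrocyte-like (1483 and 1453) and microglia-like (674 and 862). Neurons together numbered 3445 and 4332 cells, with medians of 4058 and 4259 detected genes, and glia 2962 and 3431 cells, with 2333 and 2435. The deposited values were already corrected for depth, so the depth of sequencing is unknown. In all neurons the knock-in library was also higher in Malat1 (146 and 208 per 10000), ribosomal protein genes (14.4 and 20.2) and mitochondrially encoded genes (10.5 and 17.6); their part in any difference between the libraries was not tested.

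A level below is the sum of a gene over the cells of a class, per 10000 of all values in those cells. Paired values are given with the wild-type library first and the knock-in library second. Log2 ratios and folds carry 0.1 per 10000 added to both levels, so a fold is smaller than the quotient of the levels printed beside it, most of all for low genes.

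**Figure D1:**
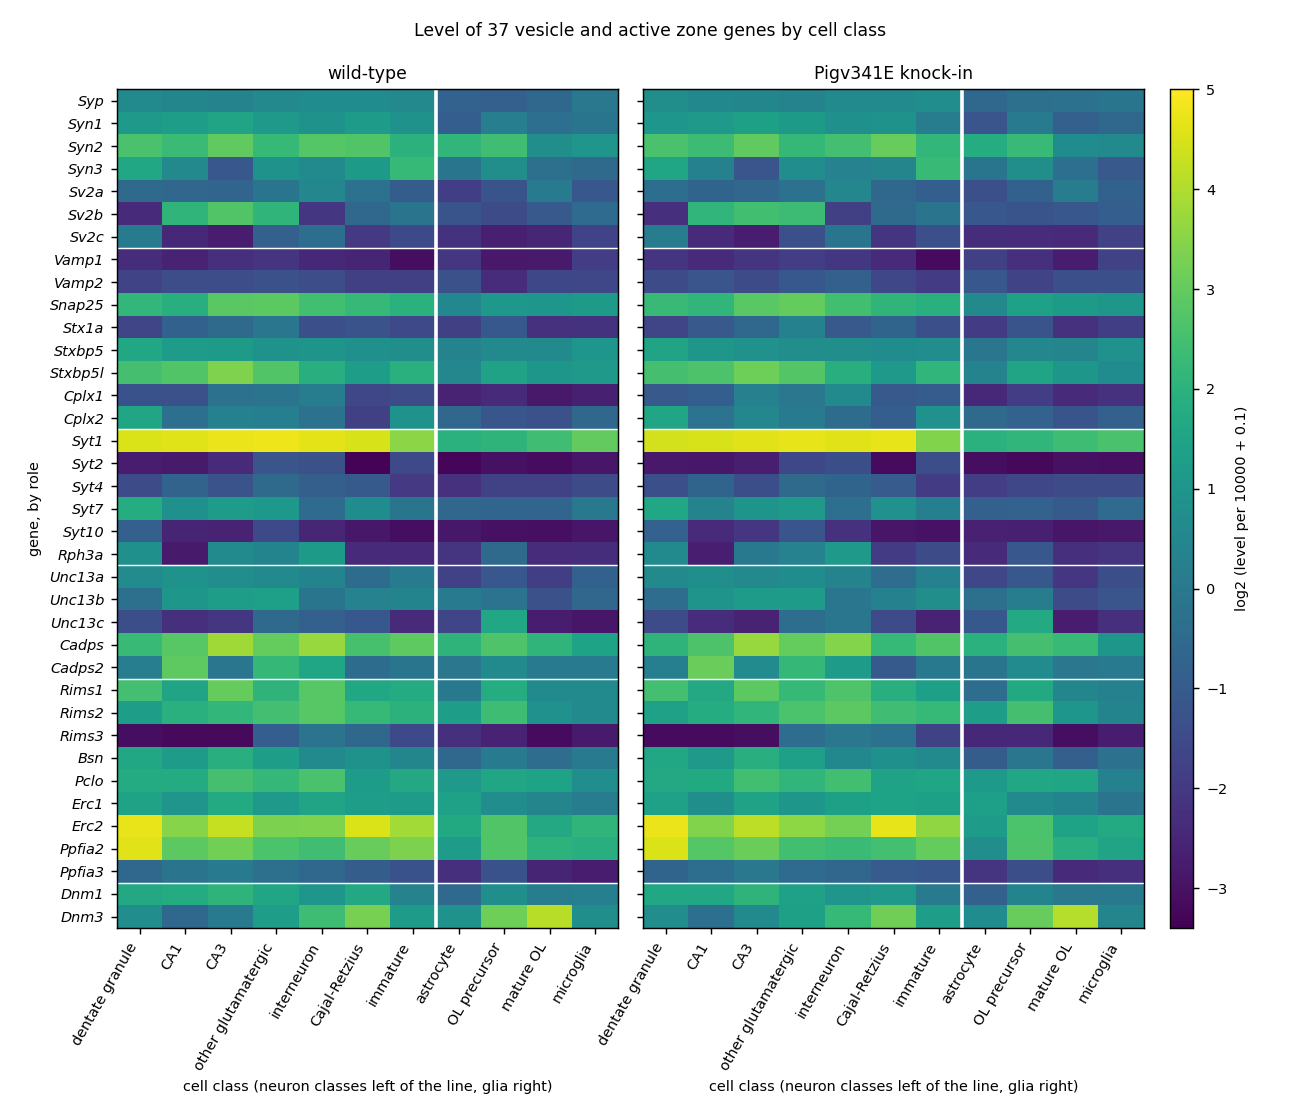
Level of the 37 genes (rows, grouped by role) in 7 neuron classes (left of the white line) and 4 glia classes (right), in both libraries; colour gives log2 of the level per 10000 plus 0.1. Syt1, Erc2 and Ppfia2 are bright across neurons, Dnm3 is brightest in mature oligodendrocyte-like cells, and the pattern over classes repeats from one library to the other.

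Most members were higher in neurons than in glia, and Dnm3 was the 1 member at least 2-fold lower. The members together made up 129 and 124 per 10000 of all values in neurons, against 39.2 and 35.2 in astrocyte-like, 70.9 and 69.9 in oligodendrocyte precursor-like, 55.7 and 54.4 in mature oligodendrocyte-like and 43.6 and 34.7 in microglia-like cells. In the 2 libraries, 25 and 24 of the 37 members reached a level of 1 per 10000 in neurons or glia with at least 10% of those cells above 0. Of these, 19 and 17 were at least 2-fold higher in neurons, while 23% and 22.8% of all genes at that level were. With a pseudocount of 1 in place of 0.1, the wild-type count was 11, and the share of all genes was not computed. Only Dnm3 was at least 2-fold lower in neurons, where 22.7% and 23.6% of all genes were. The median log2 ratio of neurons over glia was 1.38 and 1.42 over all 37 members, and -0.17 and -0.12 over all genes at that level. Cells of 1 library are not replicates, so these are descriptions of each library.

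The ratio was largest for Rph3a (log2 2.35 and 2.21), Sv2b (2.30 and 2.63), Erc2 (2.30 and 2.45), Unc13a (2.16 and 2.29) and Syt1 (2.13 and 2.21). Against each single glia class, members were counted that reached the level asked for above in neurons or in that class. Those at least 2-fold higher in neurons than in astrocyte-like cells were 17 of 25 and 17 of 24. For oligodendrocyte precursor-like cells they were 12 of 26 and 12 of 25, and for mature oligodendrocyte-like cells 20 of 25 and 18 of 25. For microglia-like cells they were 22 of 25 and 21 of 24. Members that were higher in both libraries numbered 16, 10, 18 and 21, in the same order of classes. Of all genes at that level in each library, 26% and 26.3% were at least 2-fold higher in neurons than in astrocyte-like cells. The shares were 18.5% and 18.2% for oligodendrocyte precursor-like, 29.3% and 29.2% for mature oligodendrocyte-like and 26.2% and 28.3% for microglia-like cells. Dnm3 and Unc13c were at least 2-fold lower in neurons than in oligodendrocyte precursor-like cells, as were 17.3% of all genes in both libraries. Among 59 other genes of the vesicle cycle, such as Nsf, Rab3c and Svop, 25 and 24 reached the same level, of which 11 and 12 were higher in neurons and 3 and 3 lower. This list and the members were both chosen with results of these data known.

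**Figure D2:**
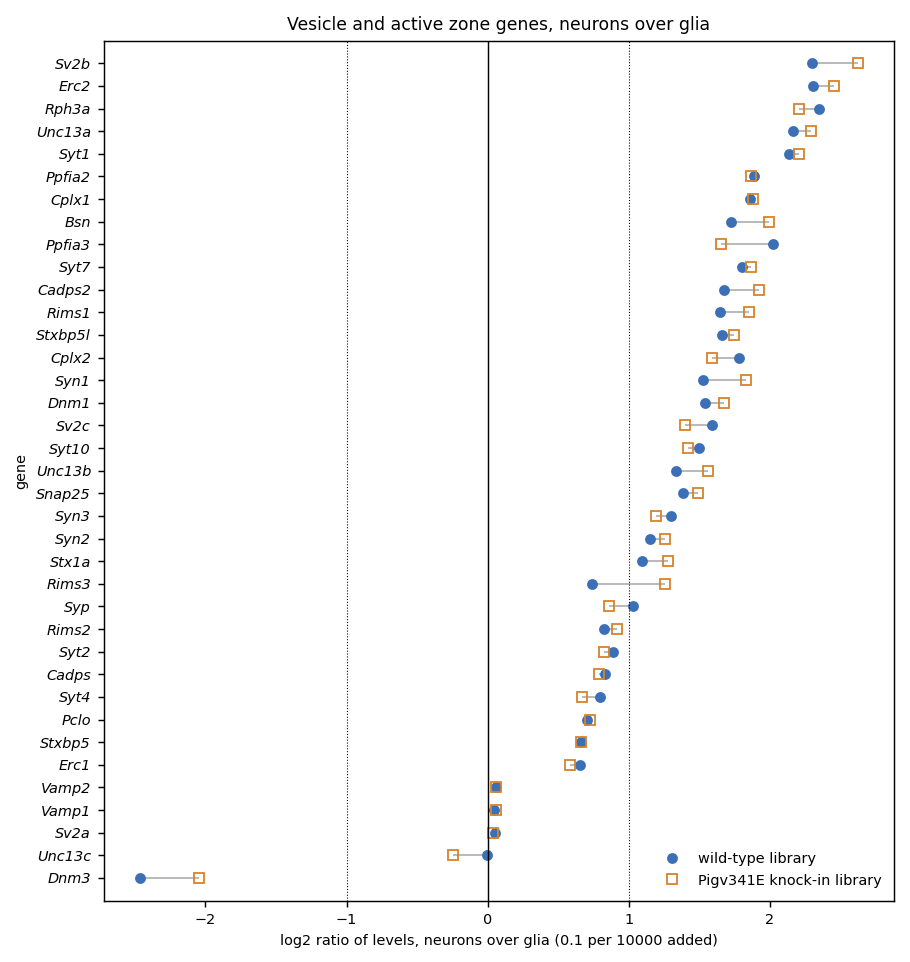
Log2 ratio of levels, neurons over glia, for each of the 37 genes in the wild-type library (filled circles) and the knock-in library (open squares), ordered by the mean of both; dotted lines mark 2-fold. Sv2b, Erc2 and Rph3a stand above 2 in both libraries, 4 genes lie near 0 and Dnm3 is the one gene far to the left, at -2.47 and -2.05.

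Most glia also had values above 0 for genes of neurons, which limits what a low level can show. Syt1 had a value above 0 in 87.4% of wild-type and 88.1% of knock-in microglia-like cells and in 99.9% of wild-type neurons. With every cell thinned to 1000 values, the shares were 41.4% and 38.9% in microglia-like cells and 89.3% and 87.3% in neurons. The level of Syt1, the fast calcium sensor of synchronous release, was 7.86 and 5.98 per 10000 in microglia-like cells, 3.84 and 3.78 in astrocyte-like cells and 24.3 and 23.1 in neurons. A level in another class that was at or under that of microglia-like cells is therefore read below as background. Microglia-like cells give no common floor, since some neuron classes lay well under them, as for Sv2b and Sv2c.

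The sequence before the annotated start is shown for Sv2b and Sv2c, paralogues whose levels lay in opposite neuron classes. It is also shown for Dnm3, the 1 member at least 2-fold higher in all glia together than in neurons. RefSeq (GRCm38.p6) gave 39 windows of 250 bases before a start for 31 of the 37 members. The letters searched, on both strands, were the GC box GGGCGG, the TATA box TATAAA, the E-box CACGTG and the cyclic AMP response element TGACGTCA. In the windows shown, no match overlaps another. A GC box was present in 24 of the 39 member windows (61.5%) and in 32.7% of 32851 windows of all genes. A TATA box was present in 2 member windows, both of Sv2b, and in 12.4% of all windows, an E-box in 3 member windows (Cadps2, Sv2b and Unc13b) and in 6.02% of all, and the cyclic AMP response element before Syn1 alone among members and in 1.55% of all. Member windows had a median of 14 CpG dinucleotides and all windows 6. Capitals mark the motifs found, which are a TATA box from base 201 in Sv2b and GC boxes from bases 137 and 211 in Sv2c, counted from the 5′ end of the window. These matches all lie on the reverse strand, so that the printed letters are the complement read backwards. All 3 genes lie on the minus strand, and the sequences read towards the start.
Sv2b, chr7:75309263-75309512: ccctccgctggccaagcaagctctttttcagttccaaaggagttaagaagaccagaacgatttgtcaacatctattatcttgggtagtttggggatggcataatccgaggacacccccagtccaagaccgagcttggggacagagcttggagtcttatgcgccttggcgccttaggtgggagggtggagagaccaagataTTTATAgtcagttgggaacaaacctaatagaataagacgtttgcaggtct
Sv2c, chr13:96132578-96132827: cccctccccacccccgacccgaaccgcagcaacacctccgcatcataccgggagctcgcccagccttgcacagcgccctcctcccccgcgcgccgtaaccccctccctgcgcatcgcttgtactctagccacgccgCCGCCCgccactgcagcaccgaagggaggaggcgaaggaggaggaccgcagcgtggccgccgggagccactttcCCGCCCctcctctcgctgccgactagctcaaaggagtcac
Dnm3, chr1:162478035-162478284: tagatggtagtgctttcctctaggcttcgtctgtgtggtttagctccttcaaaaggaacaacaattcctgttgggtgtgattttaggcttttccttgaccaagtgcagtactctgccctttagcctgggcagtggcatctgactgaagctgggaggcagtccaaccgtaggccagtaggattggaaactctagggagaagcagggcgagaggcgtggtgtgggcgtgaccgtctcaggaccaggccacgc
The windows held 7 CpG dinucleotides in Sv2b, 26 in Sv2c and 7 in Dnm3, and that of Dnm3 held none of the motifs. A match describes these letters and does not show that a factor is bound there. Each window ends where the annotated gene begins (GENCODE M21, chr7:75114894-75309262 for Sv2b, chr13:95954594-96132577 for Sv2c and chr1:161982453-162478034 for Dnm3). RefSeq gives Sv2b 3 other starts, whose windows are not shown.

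Among the vesicle proteins, the synapsins tether vesicles into the reserve pool. Syn1 had a level of 2.17 and 2.03 per 10000 in neurons and of 0.688 and 0.499 in glia. Its level was highest in CA3-like cells in both libraries (2.75 and 2.49). Syn2 had a level of 5.60 and 5.47 in neurons, and was also present in astrocyte-like (4.27 and 3.40) and oligodendrocyte precursor-like cells (5.22 and 4.71), in contrast to mature oligodendrocyte-like cells (1.59 and 1.52). Syn3 followed another order: it was highest in immature neuron-like cells (4.57 and 4.69), next in dentate granule-like cells (2.93 and 2.81) and lowest in CA3-like cells (0.362 and 0.336). Immature over CA3-like cells was 10.1-fold and 11.0-fold for Syn3. The Syn3 level of CA3-like cells was under that of microglia-like cells in both libraries and is read as background. Syn2 was thus near its neuronal level in some glia, whereas Syn3 separated young and granule cells from CA3-like cells. Exons of Syn2 overlap those of Timp4, and exons of Syn3 those of Timp3, both on the opposite strand. The part of these overlaps in the Syn2 and Syn3 levels was not tested.

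The SV2 proteins are transporter-like glycoproteins of the vesicle membrane, and each of their 3 genes was highest in a different neuron class. Sv2b had a level of 6.46 and 5.42 per 10000 in CA3-like cells, 4.18 and 4.26 in CA1-like cells and 4.18 and 4.98 in other glutamatergic neuron-like cells. In dentate granule-like cells its level was 0.0917 and 0.114, and in interneuron-like cells 0.136 and 0.187. The difference between CA3-like and dentate granule-like cells was 34.2-fold and 25.8-fold (log2 5.10 and 4.69, at least 2.77 and 2.53 in every setting tried), with 98.1% (95% interval 95.9% to 99.3%) and 96.2% of CA3-like cells above 0, and 8.34% (6.95% to 9.92%) and 9.40% of dentate granule-like cells. The dentate granule share is below that of microglia-like cells (36.1% and 18.0%), which had medians of 2496 and 2923 detected genes against 3895.5 and 4184. The Sv2b levels of dentate granule-like and interneuron-like cells were under that of microglia-like cells in both libraries and are read as background. Sv2c showed the opposite order, with 0.965 and 1.00 per 10000 in dentate granule-like cells and 0.0517 and 0.0520 in CA3-like cells, a 7.02-fold and 7.25-fold difference. The log2 ratio for Sv2c, 2.81 and 2.86, was between 0.90 and 3.98 and between 0.93 and 4.03 over the settings tried, and under 1 with a pseudocount of 1. Sv2c was above 0 in 51.8% and 53.4% of dentate granule-like cells, 4.46% and 4.59% of CA3-like cells and 10.5% and 12.5% of microglia-like cells. Its level in CA3-like cells was also under that of microglia-like cells in both libraries and is read as background. Sv2a was highest among neurons in interneuron-like cells (1.32 and 1.31) and had a level of 0.970 and 1.01 in mature oligodendrocyte-like cells, so its ratio of neurons over glia was near 0. Synaptophysin, Syp, a vesicle membrane protein, was even among neuron classes, against 0.615 and 0.713 in glia. It ran from 1.17 in CA3-like to 1.5 in interneuron-like cells of the wild-type library. In the knock-in library it ran from 1.18 in other glutamatergic neuron-like to 1.57 in dentate granule-like cells.

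Of the SNAREs, Snap25, which supplies a pair of helices to the fusion complex from the plasma membrane, had a level of 5.03 and 5.67 per 10000 in neurons and 1.87 and 1.96 in glia. It was highest in other glutamatergic neuron-like (7.34 and 7.92) and CA3-like cells (7.19 and 7.14), which differed little from each other, and lower in CA1-like cells (3.66 and 4.31). Stx1a was low, with 0.826 and 1.13 in other glutamatergic neuron-like cells and 0.222 and 0.217 in dentate granule-like cells. The vesicle SNAREs did not separate neurons from glia in these values. Vamp2 had a level of 0.251 and 0.320 in neurons and 0.237 and 0.302 in glia, and Vamp1 0.0974 and 0.132 in neurons and 0.0910 and 0.123 in glia. Vamp2 was above 0 in 21.6% and 27.7% of neurons and 13.1% and 18.4% of microglia-like cells, and a value of exactly 1 made up 78.1% of its wild-type neuron level. The level in microglia-like cells was 0.224 and 0.296 for Vamp2, a little under that of neurons, and 0.171 and 0.189 for Vamp1, above that of neurons. Interneuron-like cells of the knock-in library had a Vamp2 level of 0.459, and those of the wild-type library 0.278. Both are under the level of 1 per 10000 needed for a comparison between libraries.

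The tomosyns Stxbp5 and Stxbp5l, which compete with Vamp2 for the plasma membrane SNAREs, differed in how far neurons stood above microglia-like cells. Stxbp5l had a level of 10.3 and 8.70 in CA3-like cells, 6.5 and 6.16 in CA1-like cells and 3.54 and 3.59 in interneuron-like cells. Its level in microglia-like cells was 2.13 and 1.52. Stxbp5 was highest in dentate granule-like cells (3.01 and 2.75), but with 1.92 and 1.69 in microglia-like cells several neuron classes lay at or under that background. Complexins clamp and promote fusion, and the genes of both isoforms had different orders. Cplx2 was highest in dentate granule-like cells (2.82 and 2.85) and lower in CA1-like (0.697 and 0.778) and interneuron-like cells (0.723 and 0.649). Cplx1 was highest in interneuron-like cells (0.994 and 1.40) and lower in dentate granule-like cells (0.306 and 0.379). Dentate granule over CA1-like cells was 3.67-fold and 3.36-fold for Cplx2, and interneuron over dentate granule-like cells 2.69-fold and 3.14-fold for Cplx1. With a pseudocount of 1 the log2 ratio of Cplx1 was 0.61 and 0.80, under 2-fold.

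Among the calcium sensors, Syt1 was nearly level across mature neurons. It ran from 22.4 in Cajal-Retzius-like to 27.7 in other glutamatergic neuron-like cells in the wild-type library. In the knock-in library it ran from 21.4 to 26.0 per 10000, and there Cajal-Retzius-like cells were highest. Immature neuron-like cells stood below every other neuron class, at 11.7 and 10.5. Syt7, a high-affinity sensor of facilitation and asynchronous release, was highest in dentate granule-like cells (3.37 and 2.94) and lowest in interneuron-like cells (0.626 and 0.696), whose level was close to that of glia (0.617 and 0.479). In the wild-type library the interneuron-like level was under that of microglia-like cells and is read as background. Syt10 was low, but highest in dentate granule-like cells (0.462 and 0.486). Syt2, the fast sensor of some inhibitory terminals, had 0.303 and 0.284 in interneuron-like and 0.340 and 0.236 in other glutamatergic neuron-like cells, and Syt4 was at most 0.617 and 0.601 per 10000 in a neuron class.

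Rph3a, an effector of Rab3 on vesicles, was nearly absent from 1 pyramidal class. Its level was 2.16 and 2.05 per 10000 in interneuron-like, 1.65 and 1.43 in dentate granule-like and 1.40 and 0.903 in CA3-like cells. In CA1-like cells it was 0.0452 and 0.0557, at or below the 0.103 and 0.134 of microglia-like cells. Interneuron over CA1-like cells was 15.6-fold and 13.8-fold. Rph3a was above 0 in 76.6% and 75.0% of dentate granule-like cells, 3.74% and 3.92% of CA1-like cells and 4.30% and 6.5% of microglia-like cells. CA1-like and dentate granule-like cells had similar medians of detected genes (4164 and 4286 in CA1-like cells).

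**Figure D3:**
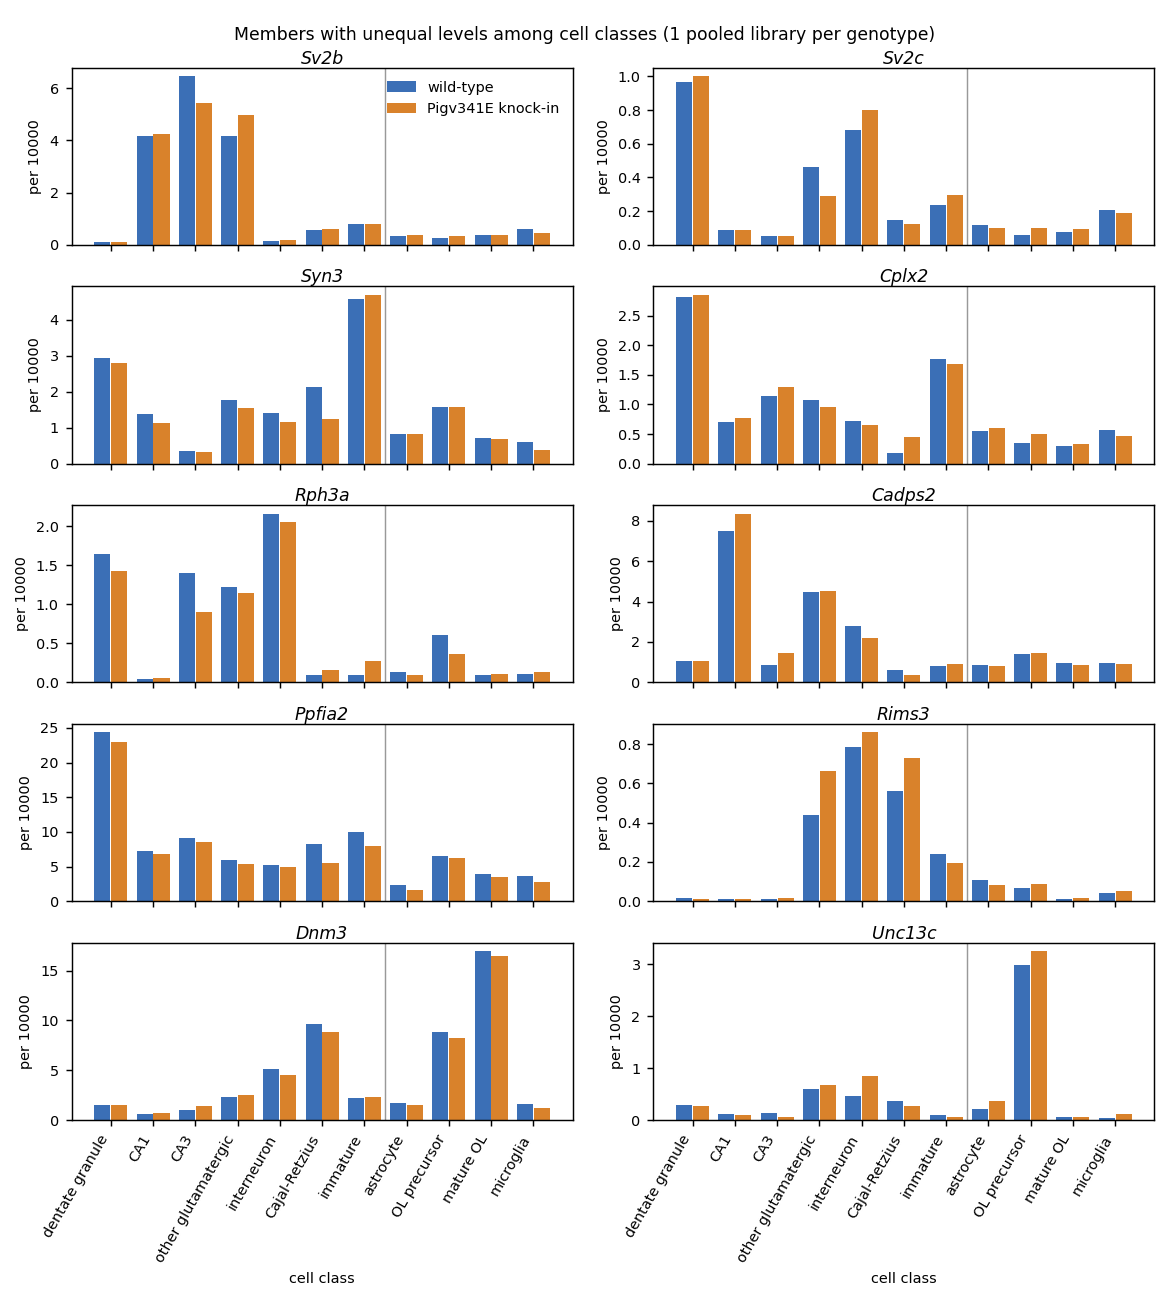
Level per 10000 (each panel has its own axis from 0) of 10 genes in 7 neuron classes and, right of the grey line, 4 glia classes; blue bars are the wild-type and orange bars the knock-in library, each 1 pool with no error bar. Sv2b is near 0 in dentate granule-like cells where Sv2c is highest, Rph3a is near 0 in CA1-like cells, and Unc13c and Dnm3 are highest in cells of the oligodendrocyte lineage.

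Priming factors make docked vesicles ready to fuse. Unc13a, the main isoform of forebrain synapses, had a level of 1.52 and 1.45 per 10000 in all neurons and 0.261 and 0.217 in glia. Among neurons it was highest in CA1-like (1.78 and 1.64) and lowest in Cajal-Retzius-like cells (0.638 and 0.651), a 2.55-fold and 2.31-fold difference. Unc13b was at least 2-fold higher in CA3-like (2.29 and 2.25), CA1-like (1.97 and 1.82) and other glutamatergic neuron-like cells (2.41 and 2.28) than in dentate granule-like cells (0.711 and 0.657). With a pseudocount of 1 the log2 ratio of CA3-like over dentate granule-like cells for Unc13b was 0.95 and 0.97. Unc13c, known from cerebellar granule cells, was highest outside neurons: its level was 2.98 and 3.25 in oligodendrocyte precursor-like cells and 0.293 and 0.350 in neurons, a 7.82-fold and 7.44-fold difference. It was above 0 in 66.2% and 73.8% of oligodendrocyte precursor-like cells, 1.78% and 3.71% of microglia-like cells and 2.22% and 2.68% of mature oligodendrocyte-like cells. The precursor cells had medians of 2423 and 2733 detected genes and the microglia-like cells 2496 and 2923.

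CAPS proteins, encoded by Cadps and Cadps2, act before fusion of dense-core and synaptic vesicles. Cadps2 had a level of 7.50 and 8.34 per 10000 in CA1-like cells, 0.840 and 1.47 in CA3-like cells and 1.05 and 1.06 in dentate granule-like cells. CA1-like over CA3-like cells was 8.09-fold and 5.39-fold. The wild-type Cadps2 level of CA3-like cells was under that of microglia-like cells and is read as background. Cadps was turned the other way, with 13.9 and 13.0 in CA3-like cells, 12.8 and 10.7 in interneuron-like cells and 6.91 and 6.26 in CA1-like cells, and its lowest neuron level in dentate granule-like cells (4.67 and 4.09). The 2 pyramidal classes therefore differed in opposite directions for these paralogues in both libraries.

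At the active zone, the large scaffold genes Bsn and Pclo were present in every neuron class. Bsn had a level of 2.60 and 2.52 in neurons and 0.720 and 0.560 in glia, and Pclo 3.82 and 3.71 in neurons and 2.31 and 2.21 in glia. Pclo did not reach a 2-fold ratio of neurons over glia (log2 0.70 and 0.72). Its lowest neuron class, Cajal-Retzius-like cells, had 2.27 and 2.61. Erc2, a partner of Rims and Bsn, was highest in dentate granule-like cells (26.5 and 26.8), then in Cajal-Retzius-like (22.8 and 25.5) and CA3-like cells (19.2 and 17.7), with 3.58 and 3.02 in glia. Its paralogue Erc1 did not reach a 2-fold ratio of neurons over glia (2.40 and 2.18 in neurons, 1.49 and 1.42 in glia). Ppfia2, a liprin-alpha, was highest in dentate granule-like cells (24.3 and 23.0) and lowest in interneuron-like cells (5.29 and 4.97), a 4.54-fold and 4.56-fold difference. Ppfia3 stayed under 1 in every class, with its highest level in CA3-like cells (0.973 and 0.867).

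Of the Rims genes, Rims1 and Rims2 encode the long scaffolds that bind Rab3, Unc13 and calcium channels. Rims1 was highest in CA3-like cells (8.01 and 7.21) and at 2.77 and 3.11 in CA1-like cells. Rims2 was highest in interneuron-like cells (6.89 and 7.25) and lowest among neurons in dentate granule-like cells (2.31 and 2.54); oligodendrocyte precursor-like cells had 5.18 and 5.61. Rims3, which encodes a short gamma isoform, had 0.787 and 0.859 in interneuron-like cells, 0.563 and 0.731 in Cajal-Retzius-like cells and 0.439 and 0.661 in other glutamatergic neuron-like cells. In CA1-like cells Rims3 was at 0.0110 and 0.0122, under the level of microglia-like cells, and is read as background. It was above 0 in 1.09% and 1.11% of CA1-like cells, against 50.3% and 52.9% of interneuron-like cells and 2.37% and 3.25% of microglia-like cells.

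The 2 dynamin genes differed between neurons and glia in opposite directions. Dnm1, the neuronal dynamin of vesicle endocytosis, had a level of 3.08 and 2.81 in neurons and 0.992 and 0.810 in glia. Dnm3 had a level of 16.9 and 16.5 in mature oligodendrocyte-like cells, 8.82 and 8.23 in oligodendrocyte precursor-like cells and 1.70 and 1.93 in neurons. Mature oligodendrocyte-like cells over neurons was 9.48-fold and 8.18-fold for Dnm3. Among neurons, Dnm3 was highest in Cajal-Retzius-like cells (9.62 and 8.88), then in interneuron-like cells (5.10 and 4.56), and lowest in CA1-like cells (0.571 and 0.689). The CA1-like level was under that of microglia-like cells in both libraries and is read as background. The summed level of oligodendrocyte markers was 2.85 and 5.74 in Cajal-Retzius-like, 1.63 and 2.13 in interneuron-like and 102 and 104 in mature oligodendrocyte-like cells, and its part in the Dnm3 level of these neurons was not tested. Exons of 15 members overlap exons of another annotated gene, 14 of them on the opposite strand, with Syn2, Syn3, Sv2b and Dnm3 among them. Whether the counting used strand is not given in the sources used here.

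Over all members, 29 of 37 reached a level of 1 per 10000 in a neuron class. Of these, 8 had their highest neuron class at least 4-fold above their lowest in both libraries: Syn3, Sv2b, Sv2c, Cplx2, Rph3a, Cadps2, Ppfia2 and Dnm3. Among all genes at that level, 34.5% did so, so the members were not set apart from other genes by this measure. The same class was highest in both libraries for 25 of the 29 members, and for 76.1% of all genes at that level. The 2 libraries share no mice, so the order of classes was seen in 2 pools.

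Between the genotypes, no member differed by 2-fold in any of the 12 classes with enough cells, the 7 neuron and 4 glia classes and choroid plexus epithelial-like cells. With each cell thinned to 1000 values, 6 did over the classes. The share of all genes past 2-fold after thinning was not computed, so these 6 cannot be set against it. As deposited, over these classes 0.991% of all genes at the needed level did. In all neurons together, 25 members had the needed level and 0 passed 2-fold, as against 0.396% of all genes. The median log2 ratio of knock-in over wild-type in neurons was -0.04 over the 37 members and -0.06 over all genes at that level. Of the 25, 8 were above 0 and 17 below, and 65.9% of all genes at that level were below 0. None of the 59 other vesicle genes passed 2-fold in a class. With 1 library per genotype this gives no bound on a difference between genotypes.

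A smaller size of 1.41-fold was passed 9 times over the 12 classes, and 16 times when cells called doublets were left out. For the 9 and for the 16, the share of all genes over the 12 classes together was not computed. The shares within each class as deposited follow. In CA3-like cells 4 of 25 members passed it, against 4.26% of all genes. Cadps2 was at 0.840 and 1.47 (log2 ratio 0.74), Cplx1 at 0.734 and 1.10 (0.52), Dnm3 at 0.979 and 1.43 (0.50) and Rph3a at 1.40 and 0.903 (-0.58). The wild-type levels of Cadps2 and Dnm3 here were under those of microglia-like cells, and so are read as background. CA3-like cells formed 1 cluster of 314 and 370 cells. In Cajal-Retzius-like cells 3 of 20 passed, against 14.7% of all genes: Syn3 (2.14 and 1.25), Ppfia2 (8.21 and 5.51) and Dnm1 (3.06 and 2.07), with log2 ratios of -0.73, -0.57 and -0.54. After thinning of each cell the Syn3 ratio was 0.37, so its direction turned. In immature neuron-like cells 1 of 22 passed, Syn1 (1.80 and 1.02, log2 ratio -0.77), against 12.2% of all genes. In choroid plexus epithelial-like cells 1 of 9 passed, Erc2 (2.10 and 3.57, 0.74), against 36.8%. None passed in dentate granule-like, CA1-like, other glutamatergic neuron-like or interneuron-like cells, where 1.46%, 2.82%, 6.43% and 3.11% of all genes did, nor in astrocyte-like, oligodendrocyte precursor-like or mature oligodendrocyte-like cells (3.28%, 2.94% and 2.28%).

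**Figure D4:**
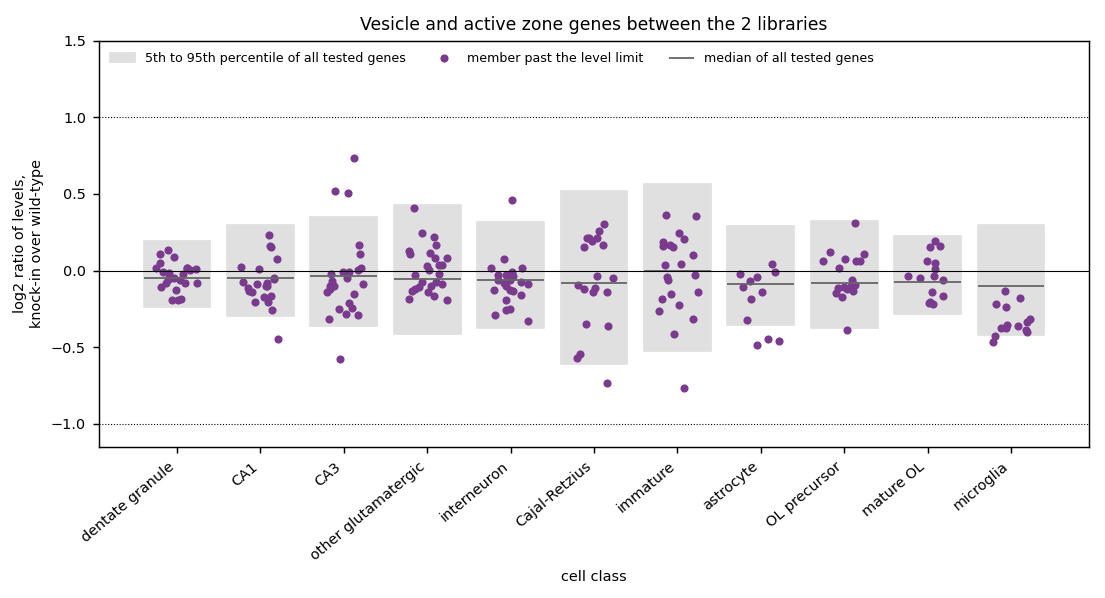
Log2 ratio of levels, knock-in over wild-type, for each member at the needed level (points, spread sideways to be seen) in 11 classes; grey boxes hold the 5th to 95th percentile of all genes at that level, grey lines are their medians and dotted lines mark 2-fold. No point reaches a dotted line, the points of most classes lie on both sides of 0, and the 14 points of microglia-like cells all lie below 0.

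In microglia-like cells, a class with no presynaptic terminals, all 14 members at the needed level were lower in the knock-in library. Their median log2 ratio was -0.36, against -0.10 for all genes at that level, of which 65.3% were below 0. The level of Syt1 there was 7.86 and 5.98 and that of Erc2 4.17 and 3.23. No member passed 1.41-fold, which 3.09% of all genes did. Over all 37 members the median was -0.24 as deposited and -0.0045 when values of exactly 1 were set to 0. It was also smaller in size with equal cluster weights, as given further below. Microglia-like cells formed 3 clusters, and the one led by Cst3 and Tyrobp held 177 of 674 wild-type and 117 of 862 knock-in cells. The part of this mix in the difference was not tested. Values of exactly 1 were present for Syn1 in 44.4% of wild-type and 23.3% of knock-in microglia-like cells. For Syn2 these shares were 36.4% and 46.9%, and for Erc2 19.3% and 28.4%, so members differed in direction. The summed member level of microglia-like cells was 43.6 and 34.7 per 10000, beside 129 and 124 in neurons. The source of these transcripts in microglia-like cells was not tested.

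The direction between libraries was also set beside gene span, the distance from a gene's start to its end. In neurons, 8 of the 12 members spanning under 50 kb were higher in the knock-in library, 3 of the 11 of 50 to 200 kb and 6 of the 14 of at least 200 kb. These counts take in all 37 members, also those under the needed level. Among all protein-coding genes at the needed level the shares were 57.1%, 26.7% and 32.3%. In glia, 10 of 12, 4 of 11 and 2 of 14 members were higher, and 55.5%, 19.2% and 25.6% of all such genes. The Spearman rho of span with the log2 ratio in neurons was -0.18 over all 37 members, 0.23 over the 25 at the needed level and -0.15 over 1930 genes at that level. In neurons the sign among members thus turned with the level asked for. In glia rho was -0.45 over all 37 members, -0.40 over the 13 at that level and -0.20 over 2058 genes. Genes of 1 class share the same libraries and cells, so these values are a description. The part of gene span in the comparison of genotypes was not tested.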

How the data were processed

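Single-cell transcripts of the hippocampus were measured with the 10x Genomics Chromium v3 chemistry, per the labels' protocols, in 1 pooled library per genotype. The authors deposited 1 table of 30223 genes by 15930 cells, whose values are treated as a score: they are whole numbers of 0 or more, with totals per cell between 4846 and 14501, a narrow band for raw counts. The build GRCm38 and Seurat 3.0.0 are named in the submitters' processing notes; how cells were filtered is not given in the sources used here. The depth is unknown and 1 unit may be no observed transcript, so no count model was used.

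Clusters were made in scanpy 1.11.5 (Python 3.11.15) from 2000 variable genes without sex-linked genes, members and other vesicle genes, with 30 principal components, 15 neighbours and Leiden resolution 1. This gave 37 clusters, with no batch correction. Naming used marker genes seen in 25% or more of a cluster, at 1.5-fold or more the level elsewhere, and needed 3 of them. The naming rule was set after the clusters were seen. A cluster stayed unnamed where another lineage had at least 3 markers and 50% as many (6 clusters) or where under 3 markers were found (1), 7 in all (7.26% of wild-type and 9.91% of knock-in cells). Pyramidal clusters without a clear CA1 or CA3 name were called other glutamatergic. Interneuron types were merged. Doublets were kept; Scrublet called 0.86% and 2.37% of cells.

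A level is the share of a gene in all values of a class, times 10000. A gene was compared where its level was at least 1 per 10000 on 1 side with at least 10% of those cells above 0; a pseudocount of 0.1 was added. Sizes of 2-fold and 1.41-fold are descriptions. Intervals of shares are exact Clopper-Pearson 95% intervals and cover counting error only. The procedure was tested on simulated data. All members are named; full values were given for the members of highest level per role, those past 4-fold among neuron classes and those past a size between libraries. Members, lists and rules were chosen with earlier results of these data known. Gene positions are from GENCODE M21 and promoter windows from RefSeq (GRCm38.p6). Alternatives covered pseudocounts, doublets, a cell filter, clustering settings, weights, thinning to 1000 and the minimum level.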

Additional observations from a re-analysis of the deposited data

Results flagged for a closer look

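Scamp5, a secretory carrier membrane protein of the other vesicle gene list, moved in opposite directions in 2 neuron classes. In Cajal-Retzius-like cells its level was 1.24 and 0.731 per 10000, wild-type first (log2 ratio -0.69). In immature neuron-like cells the level was 0.624 and 1.05 (log2 ratio 0.67). The difference between the classes was not tested, since each genotype is 1 library. The classes held 63 and 102 and 66 and 94 cells, and 14.7% and 12.2% of all genes passed 1.41-fold in them. The gene was singled out after its values were seen.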

How the results depend on the processing

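No paired analysis was possible because each genotype is 1 pooled library, and no replicate could be left out. Shares of all genes past a size were computed only as reported, so the member counts under the alternatives have none beside them. The count of members past 2-fold between the libraries over all classes was 0 as reported and under each alternative but thinning, which gave 6. The count past 1.41-fold was 9 and moved to 2 with a pseudocount of 1, 16 without called doublets, 23 after thinning, 28 with no minimum level and 15 when every value of 1 became 0. That last setting, and the one at the end, were chosen after seeing the data. The median of all members in microglia-like cells (-0.24) was -0.13 with a pseudocount of 1, -0.098 with equal cluster weights, -0.14 when centred on all genes and -0.0045 with values of 1 set to 0. Of the wild-type members higher in neurons (19), 11 were left with a pseudocount of 1. The median ratio of neurons over glia was 1.62 and 0.70 in the wild-type library and 1.78 and 0.69 in the knock-in library with pseudocounts of 0.01 and 1. Members past 4-fold among neuron classes numbered 8, 5 with a pseudocount of 1 and 12 with values of 1 set to 0. Of the 48 ratios between named classes, none turned direction over 524 values, and 16 values were no longer past the size, most with a pseudocount of 1. Of the 9 differences between libraries past 1.41-fold, 16 of 125 values fell short, and Syn3 in Cajal-Retzius-like cells reversed after thinning, to 0.37. The cause of these shifts was not tested beyond what each setting does to low values. Leaving out the glutamatergic cluster led by Unc5d, Fhod3 and Efna5 (123 and 459 cells) moved none of these counts by more than 1.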

Other observations

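Members were also present in clusters that took no name. A cluster led by Slc47a1 and Bnc2, with 24 wild-type and 87 knock-in cells, had an Erc2 level of 34.4 and 28.8 per 10000, beside 26.5 and 26.8 in dentate granule-like cells, while its Snap25 level was 0.708 and 1.55 and its summed member level 62.9 and 61.3. Erc2 was chosen here after its values were seen. A cluster led by the haemoglobin genes Hbb-bs and Hba-a1 (186 and 150 cells) had a summed member level of 120 and 101, close to the 129 and 124 of neurons, with Syt1 at 25.8 and 19.0. A cluster led by Lef1, Ebf2 and Otx2os1 (81 and 223 cells) had a summed member level of 109 and 108, with Rims2 at 8.20 and 8.96 and Dnm3 at 6.15 and 5.93. This cluster had the interneuron markers Adarb2, Gad1, Gad2 and Slc32a1, and stayed unnamed because markers of other glutamatergic neurons rivalled them. Its Sv2b level was 0.977 and 0.870, beside 4.18 and 4.98 in other glutamatergic neuron-like cells. The Sv2b levels of interneuron-like cells, given above, were lower.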
